A study of Homo sapiens with 2 samples.

Results

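The genes described here encode factors that remove R-loops or keep the genome stable where R-loops form: hybrid nucleases, helicases, topoisomerases, flap and fork repair proteins, and mRNA export and RNA processing factors. They form a list of 48 symbols, grouped by role. XPF is an older name of ERCC4, so the list holds 47 genes, all of them found among the 20033 protein-coding genes of the main chromosomes in GENCODE release 44. For each gene it was asked whether its own DNA carried an R-loop region that differed after knockdown of APOBEC3B (A3B), a cytidine deaminase. R-loops had been mapped by CUT&Tag in a uveal melanoma line named OMM2.3, which is an established line. In CUT&Tag an antibody directs a transposase to the DNA beside a bound protein. All cells were transfected with a plasmid for V5-tagged, catalytically inactive RNASEH1, which binds RNA:DNA hybrids without cutting them, and the antibody was against V5. The groups were cells with a control hairpin (shCtrl, 1 library) and cells with a hairpin against A3B (shA3B, 1 library), and the labels do not say which A3B hairpin was used. The tagged protein came from a plasmid rather than from the cells' own gene, and hybrids reached by it are what the assay could see.

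The deposited result is a list of 562 regions taken by the authors as different after A3B knockdown, each with its chromosome, start and end on GRCh38. Neither reads nor a size or sign of the difference come with it, and whether a given region gained or lost R-loop signal cannot be read from it. On the main chromosomes lay 553 of the regions, and the other 9, on alternate or unplaced contigs, were assigned to no gene. The sequencing depth is unknown from this list, the level of A3B is not in it, and there was no replicate check. The shares below therefore describe the list and do not test the knockdown.

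An R-loop forms when nascent RNA pairs again with its template and leaves the other DNA strand unpaired. Cells limit these structures in several ways. RNASEH1 and the RNase H2 complex cut the RNA of the hybrid, helicases such as AQR and DHX9 unwind it, topoisomerases relieve the negative supercoiling that favours it, the THO complex and splicing factors package the RNA before it can pair back, and XRN2 degrades the RNA left behind after 3′ end cleavage. Where a replication fork meets an R-loop, the Fanconi anaemia and BRCA proteins, RPA and ATR act to protect and restart the fork.

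A region was assigned to a gene when it lay in the gene or when its midpoint was within 3 kb of any annotated transcription start site (TSS) of the gene. By this rule BLM, FEN1 and XRN2 had a region and the other 44 genes had none. That is 6.38% of the 47 genes (95% Wilson interval 2.19 to 17.2). Of all protein-coding genes, 498 (2.49%) met the same rule, and the interval for the factor genes includes this background. The same 3 genes had a region under 2 narrower settings whose background fell below the interval. That background was 2.19% with the promoter window alone, just under the lower bound, and 1.44% with the wider 50% of regions. The latter setting kept all 3 genes since their regions, 1199, 1213 and 1580 bp wide, exceed the median of 1014 bp. With the nearest TSS alone 2 of the 47 genes were left, against 1.70%. The genes were chosen with earlier results of these data known, so none of these settings tests for an excess. BLM is the RecQ helicase lost in Bloom syndrome, FEN1 is the flap endonuclease of Okazaki fragment maturation and long-patch base excision repair, and XRN2 is the nuclear exonuclease of transcription termination. Each of these genes had a single region, and in every case the region covered the canonical TSS rather than lying deeper in the gene.

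The DNA just upstream of these start sites is shown because the regions lie over it, and that of RNASEH1 is shown beside them as the gene of the tagged enzyme, which had no region. The sequences are from RefSeq on GRCh38.p14, read 5′ to 3′ on the coding strand and ending at the base before the TSS. All 4 were identical to the hg38 genome at the listed positions. The stretch for FEN1 is shorter, 108 against 250 bases, since an untranslated region of the neighbouring TMEM258 lies before it. Capitals mark matches to short motifs, listed after the sequences.
BLM, chr15:90717096-90717345, plus strand: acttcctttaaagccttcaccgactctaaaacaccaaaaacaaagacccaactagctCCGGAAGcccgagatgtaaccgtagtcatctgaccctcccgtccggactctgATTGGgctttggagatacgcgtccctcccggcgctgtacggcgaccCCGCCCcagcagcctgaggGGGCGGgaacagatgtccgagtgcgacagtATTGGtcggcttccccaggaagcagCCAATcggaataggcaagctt
XRN2, chr20:21303081-21303330, plus strand: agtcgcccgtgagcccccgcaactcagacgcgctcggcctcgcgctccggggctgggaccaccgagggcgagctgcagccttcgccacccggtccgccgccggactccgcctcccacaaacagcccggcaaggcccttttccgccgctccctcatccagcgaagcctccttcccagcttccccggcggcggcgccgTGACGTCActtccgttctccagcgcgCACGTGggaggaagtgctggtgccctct
FEN1, chr11:61792803-61792910, plus strand: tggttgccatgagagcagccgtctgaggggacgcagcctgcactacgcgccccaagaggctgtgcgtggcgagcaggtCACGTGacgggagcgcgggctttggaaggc
RNASEH1, chr2:3558334-3558583, minus strand: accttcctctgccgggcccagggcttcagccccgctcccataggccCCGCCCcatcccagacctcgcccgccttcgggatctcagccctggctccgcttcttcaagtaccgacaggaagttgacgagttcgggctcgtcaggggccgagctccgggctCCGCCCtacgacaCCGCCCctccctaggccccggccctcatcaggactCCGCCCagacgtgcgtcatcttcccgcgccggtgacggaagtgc

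The motifs were searched on both strands, and none contains another. They were GGGCGG for the GC box, CCAAT for the CCAAT box, CCGGAAG for the core of ETS sites, TGACGTCA for the cAMP response element, CACGTG for the E-box, TATAAA for the TATA box, and TTTCGCGC or TTTGGCGC for E2F. The BLM stretch held 2 GC boxes, 3 CCAAT boxes and 1 ETS core. XRN2 held 1 cAMP response element at -54 and 1 E-box at -28, and FEN1 held 1 E-box at -30. RNASEH1 held 4 GC boxes and no other motif of the list. Over 250 bases upstream, 56.0% of 15843 protein-coding promoters of the RefSeq table held a GC box, 34.5% a CCAAT box, 11.8% an ETS core, 7.84% an E-box and 2.32% a cAMP response element. Over 108 bases, 4.48% held an E-box. No TATA box or E2F match lay in any of the 4 stretches, and the motifs found in BLM, with its CCAAT boxes, did not recur in XRN2 or FEN1.

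At BLM (ENSG00000197299.13, chr15:90717346-90816166, plus strand) the region ran over chr15:90716723-90717921. It was 1199 bp wide, and 220 of the 562 regions were at least as wide. Its midpoint lay 24 bp upstream of the canonical TSS, so that 623 bp were upstream and 576 bp downstream. The downstream part held all 95 bp of the non-coding first exon and 481 bp of the first intron, and no coding sequence. The gene spans 98.8 kb in 22 exons, and the region thus covered its very start. Of the 12 annotated TSSs of BLM, 4 lay inside the region. The antisense lncRNA gene CRTC3-AS1 starts at -205 bp from the BLM TSS, on the other strand, also inside the region, and its nearest TSS was 181 bp from the midpoint.

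At XRN2 (ENSG00000088930.8, chr20:21303331-21389825, plus strand) the region ran over chr20:21302793-21304005 and was 1213 bp wide. Its midpoint lay 68 bp downstream of the TSS, the only 1 annotated for this gene, with 538 bp upstream and 675 bp downstream. It covered all 143 bp of the first exon, 75 bp of which are coding, and 532 bp of the first intron. The unnamed lncRNA gene ENSG00000275457 starts 373 bp downstream of the XRN2 TSS on the other strand and runs back across it. This start was also inside the region, 305 bp from the midpoint, so that transcripts annotated on both strands overlap there.

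At FEN1 (ENSG00000168496.4, chr11:61792911-61797238, plus strand) the region ran over chr11:61791845-61793424. At 1580 bp it was the widest of the 3, and 108 of the 562 regions were at least as wide. It was also the least centred: the midpoint lay 276.5 bp upstream of the FEN1 TSS, with 67.5% of the region upstream. Downstream it covered the 118 bp first exon, which is untranslated, and 396 bp of the only intron. The locus is crowded. TMEM258, which encodes a subunit of the oligosaccharyltransferase complex, runs the other way and has a TSS 18.5 bp from the midpoint. MIR611, a miRNA gene inside TMEM258, starts 73.5 bp from it, and FADS2, a fatty acid desaturase gene, has an upstream TSS 345.5 bp from it. When each region was given to the gene of its nearest TSS alone, this region went to TMEM258 and the count of factor genes was 2, with BLM and XRN2. The background fell as well, to 341 genes (1.70%).

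**Figure D1:**
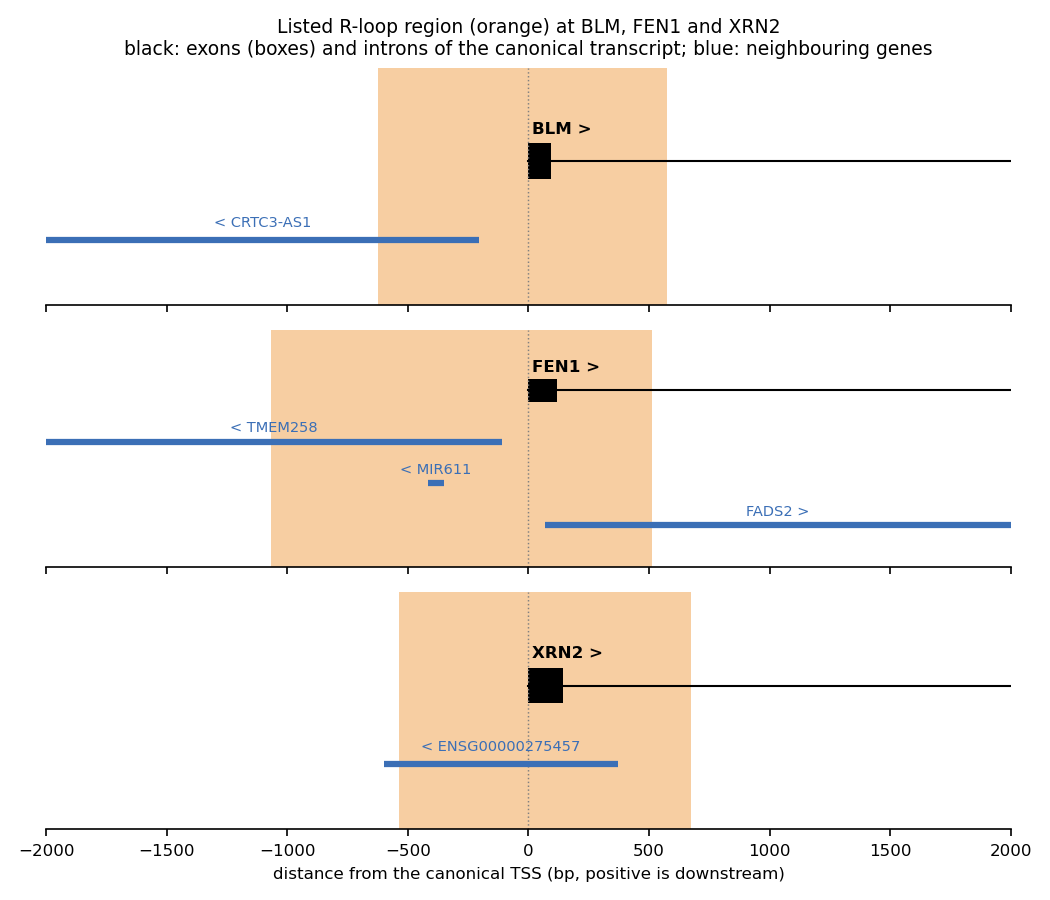
Listed regions (orange) at BLM, FEN1 and XRN2, drawn by distance in bp from the canonical TSS, with exons as black boxes, introns as black lines and neighbouring genes in blue. The region covers the TSS and first exon in all 3 genes; at FEN1 it extends 1066 bp upstream over TMEM258 and MIR611, while at BLM and XRN2 the upstream parts are 623 and 538 bp.

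The regions at BLM, FEN1 and XRN2 overlapped no annotated tRNA gene. Every 31-base word in them occurred once in the assembly, so reads from these loci have 1 place to align. Their GC contents were 57.8%, 57.5% and 62.5%, against a median of 60.3% over the 562 regions, and they held 74, 92 and 102 CpG dinucleotides. The ratio of observed to expected CpG was 0.739, 0.705 and 0.862, against a median of 0.744. A G-quadruplex motif, 4 runs of at least 3 Gs separated by 1 to 7 bases, was found on both strands at FEN1, once each, and once on the coding strand at XRN2. None was found at BLM, and 51.8% of the 562 regions held at least 1 on either strand.

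None of the genes for the hybrid nucleases had a region, and the distances were long. Unless stated otherwise, distances to a region run from the nearest annotated TSS of a gene to the nearest region midpoint. RNASEH1, which cuts hybrids of several ribonucleotides, lay 16.8 Mb from the nearest region of its chromosome, and 45 of the other factor genes were closer to a region. RNASEH2A, the catalytic subunit of RNase H2, was 1.61 Mb away, RNASEH2B 1.93 Mb and RNASEH2C 219 kb. With 0 of 4 genes, the 95% Wilson interval reaches up to 49.0%, so the number of genes limits this statement.

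Among 13 helicase genes BLM alone had a region (7.69%, 95% Wilson interval 1.37 to 33.3). The next helicase was DDX19A, an mRNA export helicase, at 57.7 kb, followed by DDX23 at 151 kb, RECQL5 at 339 kb and PIF1 at 471 kb. AQR and DHX9, which unwind hybrids, were 5.62 and 6.44 Mb away, and WRN, the other RecQ helicase gene linked to a progeroid syndrome, was 6.60 Mb away. The median over the helicases was 3.06 Mb.

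The 7 Fanconi and BRCA genes had no region (0%, 95% Wilson interval up to 35.4%), but several lay near 1. FANCD2, which is monoubiquitinated at stalled forks, was 10.6 kb away by its nearest TSS and 10676 bp by the canonical TSS. Its partner FANCI was 25.3 kb away by its nearest TSS but 91013 bp by the canonical TSS. The region near FANCI lay past the downstream end of that gene. BRCA1 was 81.3 kb away by its nearest TSS, 126206 bp by the canonical TSS, and BRCA2 was 149 kb away. FANCM, a translocase that remodels forks, was at 4.39 Mb. FANCA, of the core complex, was at 19.5 Mb, the longest distance of the 47 genes. None of the 5 topoisomerase genes had a region (95% Wilson interval up to 43.4%). TOP3A, whose product works with BLM to dissolve joined DNA molecules, was 16.2 kb away by its nearest TSS. From the canonical TSS of TOP3A the distance was 56362 bp, and the region lay past the downstream end of the gene. TOP1 was 4.46 Mb and TOP2B 6.44 Mb away.

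Of the 5 flap and excision repair genes, only FEN1 had a region. ERCC4, which encodes the XPF nuclease, was 348 kb away, and ERCC5, ERCC6 and UNG lay between 2.86 and 6.82 Mb. UNG removes uracil from DNA, the product of cytidine deamination. Among the 7 genes of mRNA export and RNA processing, XRN2 had a region (14.3%, 95% Wilson interval 2.57 to 51.3). This share and that of the flap and excision repair genes each rest on 1 gene, beside a background of 2.49%. SRSF2, a splicing factor, was the nearest of these 7 genes without a region, at 9.23 kb. SRSF1 was 212 kb and ALYREF 503 kb away, and the THO complex genes THOC5, THOC1 and THOC2 were 1.84, 4.97 and 11.3 Mb away. The 6 genes of fork protection and chromatin had none (95% Wilson interval up to 39.0%). ATRX was 109 kb away, ATR, the kinase of the replication stress response, 1.39 Mb, and the RPA genes between 237 kb and 1.56 Mb.

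**Figure D2:**
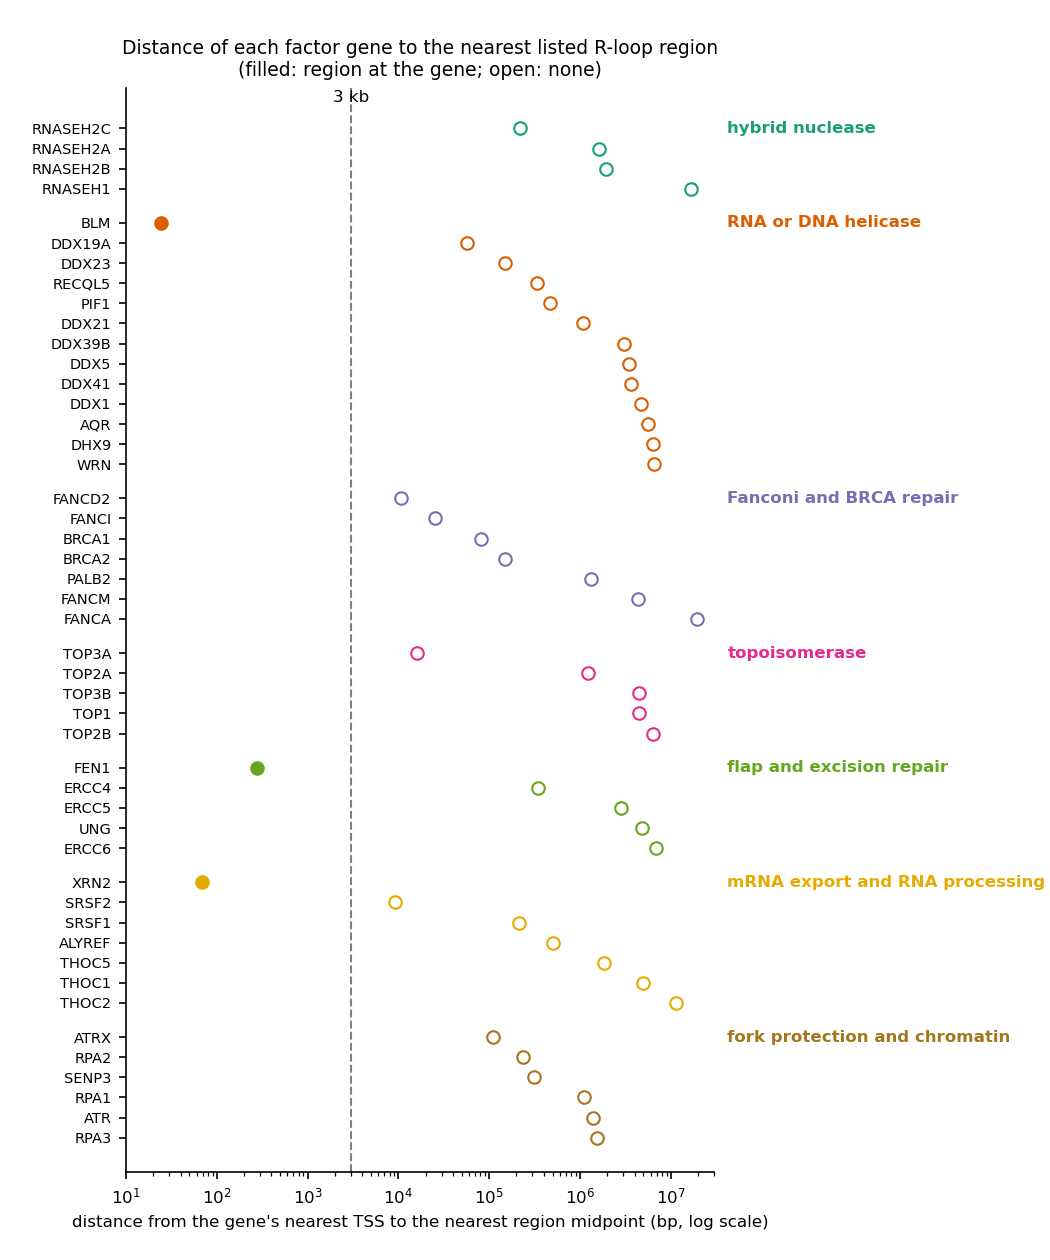
Distance in bp, on a log axis, from the nearest TSS of each of the 47 genes to the nearest region midpoint, grouped by role, with filled points for genes with a region. BLM, XRN2 and FEN1 lie at 24, 68 and 276.5 bp, and the next gene, SRSF2, lies at 9226 bp, so no gene is near the dashed line at 3 kb.

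The rule itself uses this distance, so a gap between the genes inside and outside it is partly built in. It was also not particular to these genes. The 498 protein-coding genes with a region had a median distance of 154 bp. Of all protein-coding genes, 2.19% lay within 3 kb of a region midpoint and 2.57% within 10 kb. Inside it, FEN1 had the largest distance, 276.5 bp, and outside it the smallest were 9226 bp for SRSF2 and 10609 bp for FANCD2. The regions near 4 of the 5 closest genes outside lay at starts of other genes. That near SRSF2 had its midpoint 68 bp from a TSS of JMJD6, that near TOP3A was 58 bp from FLII, that near FANCI was 131 bp from POLG, the mitochondrial DNA polymerase gene, and that near DDX19A was 137.5 bp from AARS1, the alanyl-tRNA synthetase gene. The region near FANCD2 was an exception. It was 373 bp wide, and its nearest protein-coding TSS, of EMC3, was 4559 bp away. A 10 kb window added SRSF2 to the 3 genes.

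Over the 47 genes the median distance to a region was 1.33 Mb (95% interval of the median 0.339 to 3.06), against 1.72 Mb over 19970 protein-coding genes on chromosomes with a region. Within 100 kb lay 9 of the 47 genes (19.1%, 95% Wilson interval 10.4 to 32.5), against 8.36% of all protein-coding genes and 11.7% of the related genes described below. Within 1 Mb the order differed, with 42.6% (29.5 to 56.7) of the factor genes, 48.5% (39.1 to 58.1) of the related genes and 37.6% of all protein-coding genes. Neighbouring genes share regions and gene density differs along the genome. The distance is also the shortest over all TSSs of a gene, and the factor genes had a median of 13 TSSs against 5. The part of these in the share within 100 kb was not tested. Chromosome 17 alone carried 10 of the 47 genes and 60 of the regions. None of those 10 genes had a region, and their distances ran from 9.23 kb for SRSF2 to 3.51 Mb for DDX5. Beside a background of 2.49% over all protein-coding genes, a count of 0 among 10 genes is not unusual. The share for the protein-coding genes of chromosome 17 alone is not given here. On chromosome 20, with 9 regions, 1 lay at XRN2 and TOP1 was 4.46 Mb from any.

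**Figure D3:**
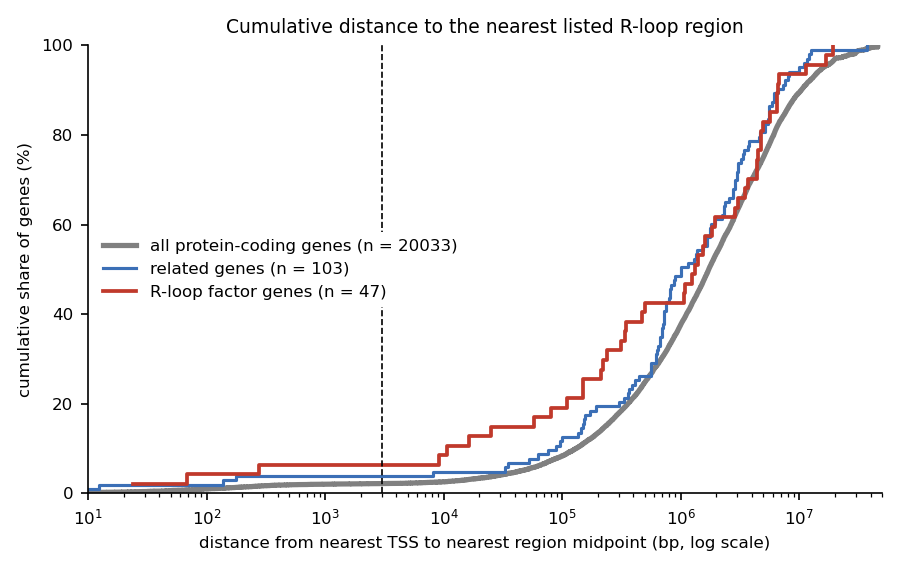
Cumulative share of genes, in percent, by distance in bp (log axis) from the nearest TSS to the nearest region midpoint, for the 47 factor genes, 103 related genes and all protein-coding genes. At 3 kb (dashed line) the curves stand at 6.38%, 3.88% and 2.19%, counting the distance alone, and at 10 Mb at 93.6%, 95.1% and 89.5%.

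The rule gives a gene with many start sites or a long body more chances to be assigned. The factor genes had a median of 13 distinct TSSs against 5 over all protein-coding genes, and a median length of 43.2 kb against 27.5 kb. None of the 24 factor genes with 13 or more TSSs had a region, against 3.66% of the 3278 protein-coding genes with as many. XRN2 had 1 TSS, FEN1 had 3 and BLM had 12. With 1 canonical TSS per gene the count of factor genes was 3 as well.

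Promoter composition was not used by the rule. Over 1 kb around the canonical TSS the GC content was 59.6% at BLM, 63.2% at FEN1 and 66.3% at XRN2. The 44 genes without a region had a median of 60.3% (95% interval of the median 57.8 to 62.8, range 30.7 to 76.3), and 20 of them fell inside the range of the 3. Over all protein-coding genes the median was 61.3%. The CpG ratio was 0.788 at BLM, 0.745 at FEN1 and 0.867 at XRN2, against a median of 0.798 (0.764 to 0.864) without a region. Most of the factor genes had CpG-rich starts, 45 of 47 with a ratio above 0.6, and the exceptions were RPA3 at 0.128 and PIF1 at 0.544. The genes with a region thus lay among the others in both measures.

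**Figure D4:**
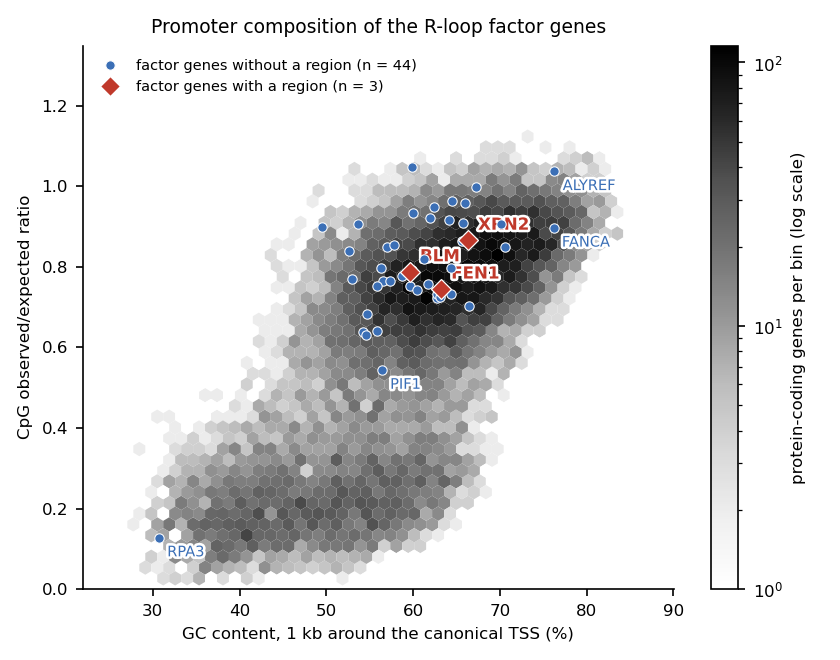
GC content (percent) and CpG observed/expected ratio over 1 kb around the canonical TSS, with all protein-coding genes as grey bins on a log scale, the 44 factor genes without a region in blue and the 3 with a region in red. BLM (59.6%, 0.788), FEN1 (63.2%, 0.745) and XRN2 (66.3%, 0.867) sit inside the cloud of the other factor genes, and RPA3 stands apart at 30.7%.

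An excess of G over C on the coding strand downstream of a TSS, known as GC skew, is a feature of R-loop forming promoters. Over the first 500 bp the skew, (G-C)/(G+C), was 0.0289 at BLM, 0.0519 at FEN1 and -0.0523 at XRN2. The median without a region was 0.0733 (95% interval of the median 0.0482 to 0.114), and over all protein-coding genes it was 0.0526. Above FEN1 stood 27 factor genes, led by BRCA1 at 0.283, RPA2 at 0.269 and RECQL5 at 0.238. Below XRN2 stood RPA3 at -0.0581 and TOP1 at -0.134, and 9 of the 44 genes without a region had a negative skew. Over 500 bp the regions at BLM, FEN1 and XRN2 were therefore not at the factor genes with the strongest skew. The order depended on the window. Over 1000 bp FEN1 rose to 0.140 and XRN2 became positive, at 0.0302, while BLM had 0.0368. BRCA1, at 0.277, and ERCC4, at 0.266, still stood above all 3. In 100 bp bins FEN1 held 0.30 and 0.36 in those centred at -250 and -150 bp, on the side where TMEM258 runs the other way. Its highest bin, 0.43, was centred 950 bp downstream of the TSS. BLM had a skew of 0.31 in the first bin downstream, and XRN2 was negative in the first 3 bins.

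**Figure D5:**
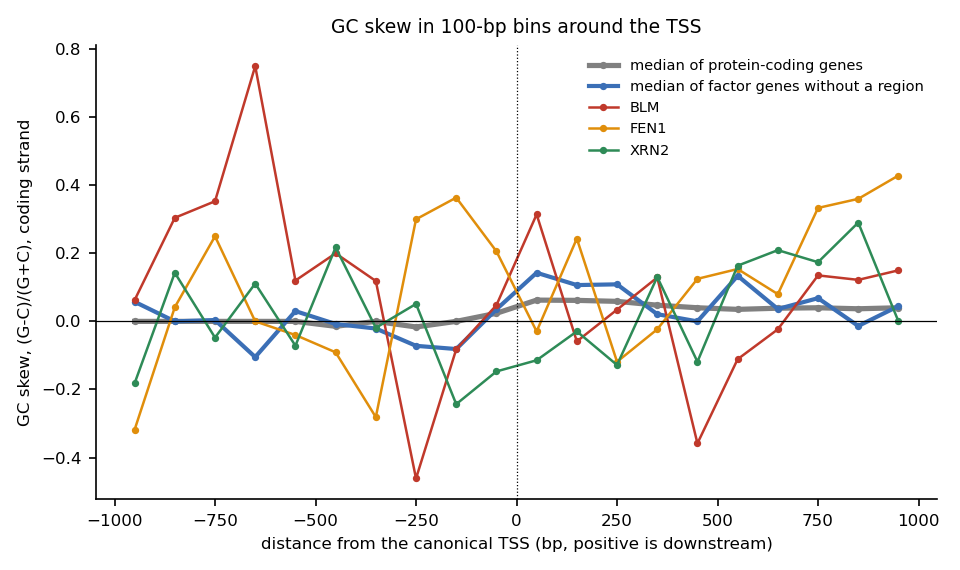
GC skew on the coding strand in bins of 100 bp by distance from the canonical TSS in bp, for BLM, FEN1 and XRN2 and for the medians of the 44 factor genes without a region and of all protein-coding genes. The first bin downstream holds 0.31 for BLM, -0.03 for FEN1 and -0.11 for XRN2, against medians of 0.14 and 0.06.

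Opposite-strand start sites were another shared property, though not one independent of the rule. A region near 1 start of such a pair can be assigned to both genes, as at FEN1 and TMEM258. BLM, FEN1 and XRN2 each had a TSS of another gene on the other strand within 1 kb of the canonical TSS. So did 19 of the 44 factor genes without a region (43.2%, 95% Wilson interval 29.7 to 57.8). Over all protein-coding genes 29.1% had such a partner, 199 of the 498 with a region (95% Wilson interval 35.8 to 44.3%) and 28.8% of those without. Pairs can share regions under the rule, and how much this adds to the contrast was not tested. Of the 22 factor genes with a partner, 18 had it upstream, head to head, and 11 partners were protein-coding. Pairs with a protein-coding partner include BRCA2 with ZAR1L at -145 bp and SRSF2 with MFSD11 at -56 bp. In the known pair of BRCA1 with NBR2, whose start lies at -187 bp, the partner is a lncRNA gene. RNASEH1, TOP3A, PALB2 and DHX9 also had a partner and no region, so a partner did not set apart the genes with a region among these few.

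Repeated sequence limits where a region can be called, because the authors applied a mapping-quality filter. In the 1 kb around the canonical TSS, all 31-base words were unique and absent from alternate contigs for 33 of the 47 genes, with BLM, FEN1 and XRN2 among them. Of the other 14, 8 had words that occur again in alternate contigs of the assembly. At DDX39B, a helicase gene in the major histocompatibility complex, these were 100% of the words. Far fewer were copied at DDX19A (9.28%), RNASEH2C (7.22%), TOP3B (5.88%), AQR (5.46%), BRCA1 (4.33%), THOC2 (0.412%) and UNG (0.103%). The remaining 6, SRSF2, FANCD2, SENP3, ERCC5, RNASEH1 and FANCA, had no copied word but between 95.2% and 99.9% unique words. The lowest share of unique words was 86.2%, at DDX19A, which has a close paralog. Because reads from DDX39B have more than 1 place to align, its lack of a region cannot be told apart from a loss of reads. Of the 9 regions outside the main chromosomes, 3 lay on alternate contigs of chromosome 6. None of their words occurred in DDX39B or within 3 kb of it, and their words that occur once on chromosome 6 placed them between 2722 and 2887 kb from the gene.

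A second list held 103 genes with related roles that are not among the 47, namely further helicases, export, chromatin, recombination, fork and uracil repair genes. Of these, 4 had a region (3.88%, 95% Wilson interval 1.52 to 9.56), an interval that also includes the background of 2.49%. They were FANCL, the ubiquitin ligase of the Fanconi core complex, HLTF, a fork reversal translocase, PRIMPOL, which reprimes stalled forks, and SSRP1, a subunit of the histone chaperone FACT. Their regions were 776, 1208, 1636 and 401 bp wide, with midpoints 3.5, 12.5, 178.5 and 139 bp from the nearest TSS of the gene. By class, 2 of 26 fork and checkpoint genes had a region (7.69%, 95% Wilson interval 2.14 to 24.1). So did 1 of 22 Fanconi and recombination genes (4.55%, 0.807 to 21.8) and 1 of 17 chromatin genes (5.88%, 1.05 to 27.0). These intervals include the background as well. The 13 further genes of hybrid removal, the 14 export and processing genes and the 11 deaminase and uracil repair genes had none (intervals up to 22.8%, 21.5% and 25.9%). MUS81, a structure-specific endonuclease gene, was 358 kb from a region, and APOBEC3B, the knocked-down gene, 665 kb. The nearest of this list without a region was SIN3A at 8.08 kb.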

How the data were processed

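R-loop CUT&Tag with a V5 antibody was available for OMM2.3 cells as 1 shCtrl and 1 shA3B library, grouped by the sample titles. Per the study's methods and the submitters' processing notes, the authors trimmed adapters with cutadapt 4.1, aligned read pairs to GRCh38 with Bowtie2 2.2.5, removed duplicates with Picard 2.27.3, applied a mapping-quality minimum of 2 with SAMtools 1.15.1, called peaks with SEACR 1.3 and took differential peaks with edgeR. Normalization, dispersion and threshold are not given in the sources used here. The deposited list has 3 columns and no values per library, so no test and no p-value was computed, and read depth is unknown.

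Starts were converted to 1-based positions and genes taken from GENCODE release 44 (hg38). The 47 genes, the 103 related genes and the motifs were chosen with earlier results of these data known. The text names every gene of either list with a region, the 5 closest and 3 farthest genes without 1, RNASEH1, TOP1, DHX9, AQR, BRCA2, RNASEH2A and genes with copied starts. Other genes were picked by role after their values were seen. Wilson intervals (95%) cover shares of genes as if independent, and intervals of medians come from the binomial distribution of ranks (for 3 genes, their range). The assignment and the 31-base word count were tested on simulated data and recovered what was planted. Alternatives changed the window, the TSSs, the part of the list and the sequence windows. Scripts ran in Python 3.11.15 with pandas 2.3.3, scipy 1.17.1, numba 0.67.0, numpy 2.4.6 and matplotlib 3.10.9. The placement of regions from alternate contigs was added after the data were seen. A few results on related genes are not reported here.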

Additional observations from a re-analysis of the deposited data

How the results depend on the processing

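The count of 3 factor genes was 3 with a 1 kb window, the promoter alone, the gene body alone, any base of a region, 1 canonical TSS per gene, TSSs of protein-coding transcripts, or the wider 50% of regions. It was 2 with the nearest TSS alone and 4 with a 10 kb window. The share of all protein-coding genes moved too, from 1.44% (wider 50% of regions) to 2.83% (10 kb), against 2.49%. The median distance to a region ranged from 1.33 to 1.84 Mb over 3 alternatives, the share of related genes was 3.88% in both of its alternatives, and GC skew over 1000 bp gave medians of 0.0368 with a region and 0.0638 without. GC content over 300 bp in place of 1 kb moved beyond its interval, to a median of 66.7% with a region and 65.8% without, and the cause was not tested. Of 18 values recomputed over 7 results, 16 stayed within their limits and 2 moved. The limit for the count was 1.5 genes, so counts of 2 and 4 were within it. The 3 regions cover the canonical TSS, with midpoints less than 1 kb from it. The 1 kb, promoter, gene body, any-base and canonical settings therefore could not drop any of the 3 genes. No paired analysis was possible because shCtrl and shA3B are single libraries merged into 1 list. A stricter threshold than the authors' was not tried, since the lines carry no score.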

Other observations

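The regions of the factor genes stood at lines 333, 473 and 498 of the 562 lines of the list, for BLM, FEN1 and XRN2, and those of the related genes at lines 74, 94, 258 and 266, for PRIMPOL, HLTF, SSRP1 and FANCL. What set the order of the lines is not given in the sources used here.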
